A study of Mus musculus with 5 samples.

Results

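The genes described here carry peptide antigens to the cell surface. They were the 3 genes of the classical class I complex (H2-K1, H2-D1 and B2m) and 4 genes of the class II complex and its chaperone (H2-Aa, H2-Ab1, H2-Eb1 and Cd74), taken by symbol from the expression tables. All 7 were present in every table and made up 7 of the 13711 genes that the tables shared. They were measured by Visium, a slide whose barcoded spots bind polyadenylated RNA from the tissue above them, in 5 transverse heart sections of wildtype C57BL/6 mice, each 10 µm thick. Every animal was operated on at postnatal day 1. In the myocardial infarction (MI) groups the left anterior descending artery was ligated, and sham animals had the operation without ligation. Hearts were taken 3 or 7 days later and cut 200 µm below the suture, with sham hearts cut at the equivalent level. There was 1 section each for Sham day 3, MI day 3 and Sham day 7, and 2 for MI day 7 (replicates 1 and 2). The study describes the replicate sections as biologically independent. All other groups had no replicate, so the spread behind each p-value rests on few sections.

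MHC class I molecules are present on nearly all nucleated cells. They are built from a polymorphic heavy chain (H2-K1 or H2-D1 in these mice) and the invariant light chain β2-microglobulin (B2m), are loaded in the endoplasmic reticulum with peptides cut by the proteasome and carried in by the TAP transporter, and are read by CD8+ T cells. MHC class II molecules are largely restricted to professional antigen-presenting cells such as dendritic cells, B cells and some macrophages. Their α and β chains (H2-Aa with H2-Ab1, and the β chain H2-Eb1) travel with the invariant chain Cd74, which is degraded in the endosome before a peptide is bound, and are read by CD4+ T cells. C57BL/6 mice lack a working H2-Ea gene, the partner of H2-Eb1, so the transcript of H2-Eb1 does not give a surface complex in this strain. Class I genes are inducible by interferons and NF-κB, and class II genes require the transactivator CIITA.

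In the annotation of genome build GRCm38 (GENCODE), 5 of the genes lie in the MHC on chromosome 17: H2-K1 at chr17:33996017-34000347 on the minus strand, H2-Ab1 at chr17:34257689-34269419 on the plus strand, H2-Aa at chr17:34282744-34287823 on the minus strand, H2-Eb1 at chr17:34305867-34316674 on the plus strand and H2-D1 at chr17:35262730-35267499 on the plus strand. B2m lies apart from these, at chr2:122147686-122153083 on the plus strand. The promoters of 5 members, from 250 bases before to 50 bases after the start of the gene, are shown so that those of H2-K1 and H2-D1, whose ratio differed between sections, can be read side by side with the rest. They are RefSeq sequences of GRCm38.p6, written 5′ to 3′ on the strand of the gene, and the start is that of RefSeq, which for H2-D1 lies inside the GENCODE gene given above. Capitals mark the letters of 4 short motifs, searched on both strands. These were the κB site of enhancer A (GGGGA and TCCCC with 1 base between them), the core of an interferon-stimulated response element (GAAA and GAAA with 2 bases between them), TGACG (in the X2 box) and ATTGG (the Y box).
H2-K1, chr17:34000298-34000597, minus strand: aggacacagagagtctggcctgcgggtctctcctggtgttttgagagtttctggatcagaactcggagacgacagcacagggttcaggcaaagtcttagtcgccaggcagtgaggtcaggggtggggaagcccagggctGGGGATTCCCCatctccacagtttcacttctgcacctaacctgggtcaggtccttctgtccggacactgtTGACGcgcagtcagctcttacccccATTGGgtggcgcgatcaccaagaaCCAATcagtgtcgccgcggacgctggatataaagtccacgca
H2-D1, chr17:35262844-35263143, plus strand: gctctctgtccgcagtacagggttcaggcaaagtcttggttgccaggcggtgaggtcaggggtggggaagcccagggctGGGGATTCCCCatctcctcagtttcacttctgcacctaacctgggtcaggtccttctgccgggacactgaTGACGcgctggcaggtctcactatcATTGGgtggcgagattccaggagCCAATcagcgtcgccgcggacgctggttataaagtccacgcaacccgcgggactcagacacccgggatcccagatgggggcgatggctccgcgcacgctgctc
B2m, chr2:122147437-122147736, plus strand: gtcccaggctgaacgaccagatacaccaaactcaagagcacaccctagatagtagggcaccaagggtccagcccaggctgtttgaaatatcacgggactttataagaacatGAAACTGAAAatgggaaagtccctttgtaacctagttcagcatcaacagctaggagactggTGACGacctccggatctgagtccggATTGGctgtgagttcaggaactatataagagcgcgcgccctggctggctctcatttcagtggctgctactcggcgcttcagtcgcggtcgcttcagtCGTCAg
H2-Aa, chr17:34287774-34288073, minus strand: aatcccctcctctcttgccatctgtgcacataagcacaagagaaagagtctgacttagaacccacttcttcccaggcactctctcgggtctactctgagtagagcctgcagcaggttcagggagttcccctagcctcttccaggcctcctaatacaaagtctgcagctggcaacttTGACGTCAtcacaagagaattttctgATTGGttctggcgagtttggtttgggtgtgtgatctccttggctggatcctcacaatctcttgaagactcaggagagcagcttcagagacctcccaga
H2-Eb1, chr17:34305617-34305916, plus strand: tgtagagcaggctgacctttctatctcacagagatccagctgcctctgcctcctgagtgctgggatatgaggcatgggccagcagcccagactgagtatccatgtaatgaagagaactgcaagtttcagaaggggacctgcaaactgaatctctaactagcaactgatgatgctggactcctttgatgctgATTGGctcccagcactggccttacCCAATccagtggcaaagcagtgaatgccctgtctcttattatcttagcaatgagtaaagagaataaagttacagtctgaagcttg

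The κB letters were found in the windows of H2-K1 and H2-D1, and in 0.0487% of the 32851 promoter windows in the RefSeq table. In both genes it lay 95 bases before the first Y box letters and 70 bases before TGACG, and the windows shared an identical run of 47 bases. The exact letters searched for the interferon element were found only in B2m among the 5, and in 3.44% of all windows. Forms of the element with other letters were not searched for, so the other windows are not shown to lack one. ATTGG was present in 5 of 5 members against 37.4% of all windows, and TGACG in 4 of 5, all but H2-Eb1, against 20.8%. In H2-Aa TGACG matched on both strands at the same place, so those matches overlap. A match is a description of the letters and not a test of binding.

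The sections held 376 to 960 spots, and the median raw UMI count per spot was 20842.5 to 22934 in both sham sections and MI day 7 replicate 2, 34837.5 in MI day 3 and 53940 in MI day 7 replicate 1. CPM (values scaled to a total of 1000000) were computed for each spot over the shared genes and averaged over the spots of a section. A spot covers several cells, so fewer cells of a type and less RNA per cell cannot be told apart. The Sham day 3 table held raw UMIs and the other 4 tables held corrected counts. The barcode grid is fixed, and 897 of 1948 barcodes occurred in more than 1 section. In MI day 7 replicate 1 mitochondrial genes held 24.7% of the values, against 13.8% to 15.8% elsewhere.

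Class I transcripts were highest in the MI day 3 section. H2-K1, a heavy chain, averaged 54.5 CPM in Sham day 3, 199.6 in MI day 3, 55.7 in Sham day 7, and 69.0 and 66.9 in MI day 7 replicates 1 and 2. Every MI section was above both sham sections, and MI day 3 was 3.66-fold above Sham day 3. The other heavy chain, H2-D1, averaged 172 CPM in Sham day 3, 332 in MI day 3, 152 in Sham day 7, and 117 and 121 in MI day 7 replicates 1 and 2. It was 1.93-fold higher in MI day 3 than in Sham day 3, but both MI day 7 sections lay below both sham sections, at 0.769 and 0.798 times Sham day 7. B2m averaged 185 CPM in Sham day 3, 583 in MI day 3, 169 in Sham day 7, and 198 and 182 in MI day 7 replicates 1 and 2. It was 3.15-fold higher in MI day 3 than in Sham day 3, and MI day 7 replicate 2 fell between the sham sections. In the order of levels, H2-K1 and B2m differed less between the sham sections and MI day 7 than between any of these and MI day 3. The SD over the MI day 7 replicates (n = 2) was 1.54 CPM for H2-K1, 3.10 for H2-D1 and 11.2 for B2m. The sham sections differed by less than that SD for H2-K1, and by more for H2-D1 and B2m.

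Class II transcripts were sparse, and were high in MI day 3 and in MI day 7 replicate 2 but not in replicate 1. H2-Aa, the α chain of I-A, averaged 0.774 CPM in Sham day 3, 10.3 in MI day 3, 0.595 in Sham day 7, and 0.805 and 8.65 in MI day 7 replicates 1 and 2. Its partner H2-Ab1 averaged 1.06 CPM in Sham day 3, 7.09 in MI day 3, 0.630 in Sham day 7, and 1.05 and 8.62 in the replicates. The chains of I-A thus ran in parallel, with only MI day 3 and replicate 2 standing clear of the rest. H2-Eb1 averaged 2.75 CPM in Sham day 3, 4.73 in MI day 3, 0.869 in Sham day 7, and 1.32 and 5.10 in the replicates. Cd74 (chr18:60803848-60812652, plus strand) averaged 2.77 CPM in Sham day 3, 17.7 in MI day 3, 2.04 in Sham day 7, and 2.87 and 18.3 in the replicates. The sections keep the same split for H2-Eb1 and Cd74, though H2-Eb1 was only 1.72-fold higher in MI day 3 than in Sham day 3, against 6.39-fold for Cd74, 6.69-fold for H2-Ab1 and 13.3-fold for H2-Aa. Counts in the sham sections were small. The raw Sham day 3 table held 9 UMIs of H2-Aa, 12 of H2-Ab1, 30 of H2-Eb1 and 28 of Cd74. Together these 79 UMIs were 6.93 CPM when pooled over the section (95% interval 5.49 to 8.64, exact Poisson, counting error only). Any class II transcript was found in 11.2% of Sham day 3 spots, 47.1% in MI day 3, 7.08% in Sham day 7, and 21.6% and 25.3% in MI day 7 replicates 1 and 2, shares that depend on depth and were not thinned.

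**Figure D1:**
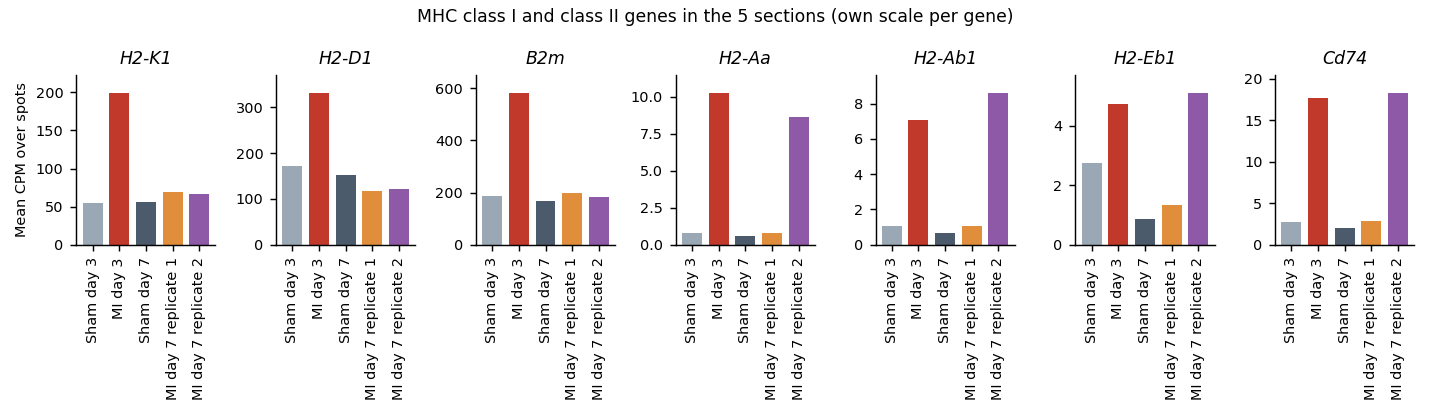
Mean CPM over the spots of each section (y axis, linear, own scale per gene) for the 7 members, with 1 bar per section and no error bar because a section is 1 sample. H2-K1, H2-D1 and B2m peak in MI day 3, whereas the class II genes are high in MI day 3 and MI day 7 replicate 2.

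Groups were separated for few members. H2-K1 and Cd74, 2 of 6 members other than H2-Aa, had every MI section above both sham sections, as did 6.84% of the 12933 genes tested, H2-Aa did too, and 0 of 7 had every MI section below (9.6% of all genes). The margin was narrow for H2-Aa (0.805 against 0.774 CPM) and Cd74 (2.87 against 2.77 CPM), where MI day 7 replicate 1 stood at the sham level. H2-Aa passed the filter on low values, at least 1 CPM in at least 2 sections, only through MI day 3 and MI day 7 replicate 2, so it had to differ between sections, and counts set against all genes are read without it.

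When MI was compared with sham over both days, limma on log2(mean CPM + 1) with day as a covariate gave positive differences for all 7 members. At an adjusted p under 0.05 it called 0 of 7, against 0.00773% of all genes called higher. At an unadjusted p under 0.05, H2-K1, B2m, H2-Ab1 and Cd74 were higher, 4 of 6 members other than H2-Aa, which was also higher, as were 692 of 12933 genes (5.35%), and 356 (2.75%) were lower. The estimate was 0.96 ± 0.31 (SE) for H2-K1, with a limma adjusted p of 0.504. For B2m it was 0.80 ± 0.30 (limma adjusted p = 0.568) and for H2-D1 0.20 ± 0.27 (limma adjusted p = 0.889). Class II estimates were 1.94 ± 0.67 for H2-Aa, 1.85 ± 0.62 for Cd74, 1.67 ± 0.59 for H2-Ab1 and 0.84 ± 0.40 for H2-Eb1, with limma adjusted p of 0.511 to 0.669. The count rested on the sections used. Without MI day 7 replicate 1, Cd74 and H2-Ab1 passed (limma adjusted p of 0.0216 and 0.0327), and so did H2-Aa (limma adjusted p = 0.0216), for which the MI sections kept are those that took it past the filter. In that setting 81 of 12887 genes were called higher and 6 lower. Without Sham day 7 the estimate sets 1 MI section against 1 sham section of day 3. Its values are the day 3 differences given below, and no test of them is given.

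At day 3, with 1 section per group and no replicate, the log2 difference of MI from sham was 1.85 for H2-K1, 1.65 for B2m and 0.94 for H2-D1. Among class II genes it was 2.67 for H2-Aa, 2.31 for Cd74, 1.97 for H2-Ab1 and 0.61 for H2-Eb1. Thus 4 of 6 members other than H2-Aa were at least 1 log2 higher, compared with 3.51% of all genes, H2-Aa was past this size too, and 0 of 7 were at least 1 log2 lower (0.518% of all genes). The log scale with a pseudocount understates the difference of the low class II genes.

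At day 7 the class I genes were close to sham and the class II estimates carried the spread of the replicates. The log2 difference of MI from sham was 0.28 ± 0.22 (SE) for H2-K1, 0.17 ± 0.24 for B2m and −0.35 ± 0.24 for H2-D1. It was 1.51 ± 0.54 for Cd74, 1.45 ± 0.54 for H2-Ab1, 1.39 ± 0.57 for H2-Aa and 1.01 ± 0.40 for H2-Eb1. In limma 0 of 7 members passed (adjusted p of 0.687 to 1.00), against 0.186% of all genes called higher and 0.0464% lower, and at an unadjusted p under 0.05 H2-Ab1, H2-Eb1 and Cd74 were higher, as was H2-Aa, with 314 of all genes higher (2.43%) and 218 lower (1.69%). Only the pair of MI day 7 sections gave the spread here. H2-Ab1, H2-Eb1 and Cd74 were at least 1 log2 higher in replicate 2 than in replicate 1, as were 1.17% of all genes, and 0 of 3 class I genes were. H2-Aa was past this size too, but without replicate 2 it does not pass the filter on low values, so it is not counted here. The ratio of replicate 2 to replicate 1 was 10.8 for H2-Aa, 8.20 for H2-Ab1, 6.38 for Cd74 and 3.88 for H2-Eb1, compared with 0.968 for H2-K1, 1.04 for H2-D1 and 0.920 for B2m. From pooled CPM, Cd74 passed at day 7 (limma adjusted p = 0.0206).

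Whether the MI effect differed between days was tested as an interaction. Of its 4 groups, 3 are 1 section each, so every SE and p rests on the spread of the MI day 7 pair (1 residual degree of freedom) and on the assumption that the lone sections vary like it. The day 7 effect minus the day 3 effect was −1.57 ± 0.34 (SE) on the log2 scale for H2-K1 (limma adjusted p = 0.0537), −1.48 ± 0.37 for B2m (limma adjusted p = 0.121) and −1.29 ± 0.36 for H2-D1 (limma adjusted p = 0.191). None of the class I genes passed the threshold, against 0.363% of all genes called lower and 0.0619% higher. At an unadjusted p under 0.05 the 3 class I genes were lower in limma, as were 533 of all genes (4.12%), and 170 (1.31%) were higher. The class II values ran from −1.28 for H2-Aa to 0.40 for H2-Eb1, all with a limma adjusted p of 1.00, and no sign was shared by the 4. H2-K1 lay at the threshold: its limma adjusted p was 0.00523 from pooled CPM, 0.0265 with a pseudocount of 5, 0.287 with median-of-ratios scaling and 0.407 without mitochondrial and haemoglobin genes.

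Day 7 sections were compared with day 3 sections with operation as a covariate. The median of all genes was −0.18 log2 in this comparison and near 0 with median-of-ratios scaling, so member values are given relative to it. Relative to that median, B2m was lower by a log2 value of −0.79, H2-D1 by −0.73, H2-Aa by −0.70, H2-K1 by −0.69, H2-Eb1 by −0.60, Cd74 by −0.59 and H2-Ab1 by −0.46. In limma 0 of 7 passed (adjusted p of 0.127 to 0.504), against 0.348% of all genes called lower and 0.247% higher, and at an unadjusted p under 0.05 the 3 class I genes were lower, as were 2810 of all genes (21.7%), and 431 (3.33%) were higher. Without Sham day 7 the comparison is that of the MI day 7 pair with the lone MI day 3 section, so only effect sizes are given. H2-K1 was at −1.54, H2-D1 at −1.47 and B2m at −1.61 log2, where the median of all genes was −0.218. Without Sham day 3 the same sections are compared.

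The ratio between the class I heavy chains was also compared between MI and sham sections. H2-K1 CPM divided by H2-D1 CPM was 0.317 in Sham day 3, 0.602 in MI day 3, 0.366 in Sham day 7, and 0.590 and 0.551 in MI day 7 replicates 1 and 2. The MI sections averaged 0.581 ± 0.0266 (SD, n = 3) and the sham sections 0.341 ± 0.0351 (SD, n = 2), without overlap. An exact two-sided permutation test gave p = 0.2, the smallest that the 10 splits of 3 against 2 sections allow, and this was 1 of 3 ratios tested, each chosen after its values were seen. B2m per summed heavy chain was 0.816 in Sham day 3 and 0.814 in Sham day 7, 1.10 in MI day 3, and 1.07 and 0.969 in the MI day 7 replicates (exact permutation p = 0.2). Cd74 per summed class II chain was 0.605 in Sham day 3, 0.801 in MI day 3, 0.974 in Sham day 7, and 0.904 and 0.819 in the MI day 7 replicates, and the groups overlapped (exact permutation p = 0.8). The ratios compare sections; capture differs between transcripts, so they do not say which heavy chain was the more abundant.

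The H2-K1 to H2-D1 ratio was also computed among spots of each kind. Each spot carried 11 cell type scores that sum to 1, transferred from a reference of nuclei, and spots were grouped by their highest score: cardiomyocyte states (CM1, CM4 and others), fibroblast (FB), endothelial (EC), endocardial (EndoEC), epicardial (EPI), macrophage and others. Of the 6 classes with at least 10 spots in every section, 6 had every MI section above both sham sections. CM1 spots had ratios of 0.330 and 0.366 in sham and 0.538 to 0.609 in MI. EC spots had 0.315 and 0.363 against 0.513 to 0.674, and Macrophage spots had 0.286 and 0.370 against 0.472 to 0.663. The classes share their sections and are not independent of each other. Of 451 words of 50 bases in the last 500 bases of each transcript, 2 of H2-K1 also occurred in H2-D1 and 43 (9.53%) of H2-D1 occurred in 80 other genes, so part of the H2-D1 reads could be ambiguous, and 0 words of the other 5 members were shared.

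**Figure D2:**
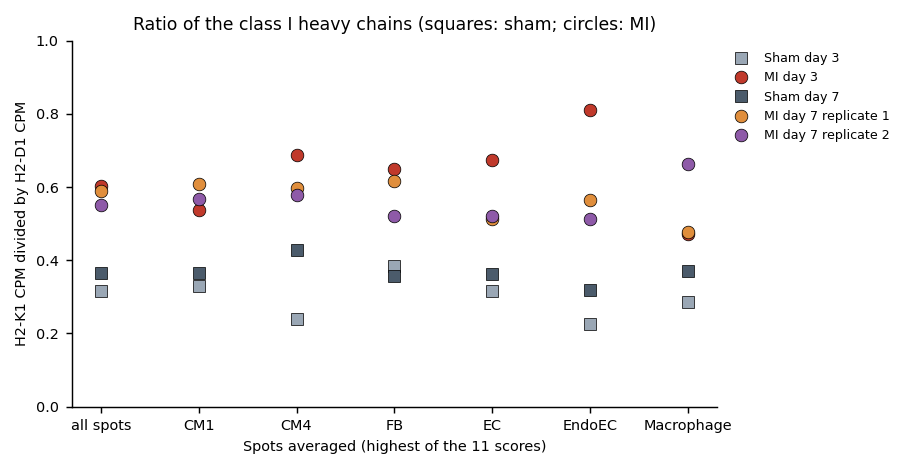
Ratio of H2-K1 CPM to H2-D1 CPM (y axis, linear) over all spots and over spots of 6 score classes (x axis), with squares for sham sections and circles for MI sections. Over all spots the sham sections are at 0.317 and 0.366 and the MI sections between 0.551 and 0.602.

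By score class, class I transcripts were detected in all kinds of spot, and the MI day 3 section was above both sham sections in each of the 6 classes present throughout. The summed class I level (H2-K1, H2-D1 and B2m) in CM1 spots was 373 CPM in Sham day 3, 798 in MI day 3, 332 in Sham day 7, and 326 and 297 in the MI day 7 replicates. EC spots had 520, 940, 417, 429 and 440 CPM in the same order, above CM1 spots in each section. H2-D1 in EC spots was 242, 270, 176, 143 and 149 CPM, and in CM1 spots 155, 243, 138, 99.0 and 95.6 CPM. Macrophage spots had 505, 3694, 401, 422 and 968 CPM. Hence the Macrophage spots stood far above CM1 spots in MI day 3 and MI day 7 replicate 2, and not in the other sections. The numbers of Macrophage spots were small, 26, 20, 70, 21 and 13 in that order. FB spots reached 1718 CPM in MI day 3, while the sham sections had 414 and 425 and MI day 7 replicates had 526 and 545. The 22 FB spots of MI day 3 also held 1990 CPM of macrophage markers, against 173 and 180 in the FB spots of sham, and 465 CPM of neutrophil markers, against 38.9 and 6.27, and the part of these markers was not tested. EPI spots numbered at least 10 only in MI day 7 replicate 2, where 15 spots averaged 1098 CPM.

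Class II levels also varied by score class. In Macrophage spots the summed class II level was 8.90 CPM in Sham day 3, 176 in MI day 3, 5.54 in Sham day 7, and 7.05 and 456 in the MI day 7 replicates. In MI day 3 the other classes of at least 10 spots had 85.5 CPM in FB spots, 55.9 in EndoEC, 37.0 in EC, 30.1 in CM4, 16.8 in CM1 and 7.83 in CM5 spots. The 8 EPI spots of that section, under the minimum of 10, averaged 232 CPM, above its Macrophage spots, and held 12.4% of its class II sum, with 667 CPM of macrophage and 7592 of fibroblast markers. The 20 Macrophage spots held 23.5% of the class II sum of that section in 5.32% of its spots, and the CM1 spots 23.6% in 56.1% of its spots. In CM1 spots of MI day 7 replicate 2 the level was 15.7 CPM. The 13 Macrophage spots of replicate 2 held 18.4% of the class II sum of the section and the 15 EPI spots, at 538 CPM, held 25.1%, although these classes made up 1.64% and 1.90% of the spots. The EPI spots held 2901 CPM of macrophage, 22448 of fibroblast and 132 of B cell markers, and their part in the class II level was not tested. The Macrophage and EPI spots were also shallow, with median raw UMI counts of 12973 and 11217. Cd74 reached 88.5 CPM in Macrophage spots of MI day 3, and 229 CPM in Macrophage spots and 262 in EPI spots of replicate 2. In EC spots, Cd74 was 19.1 CPM in MI day 3 and 15.9 in replicate 2, and listed at 0 in Sham day 3. The scores were made from the same expression values, so a class against another is a description with no test.

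**Figure D3:**
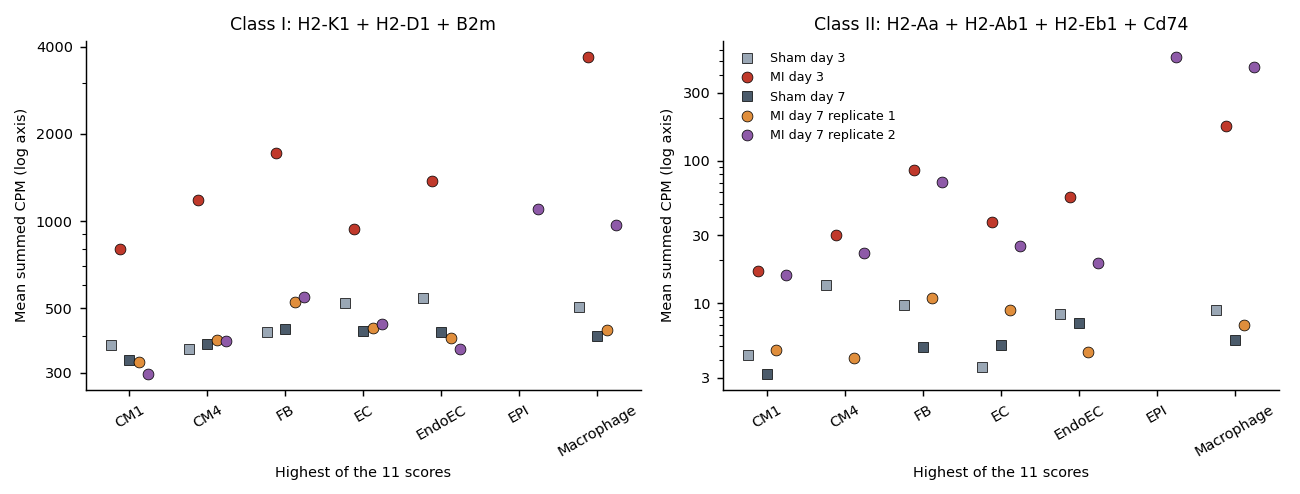
Mean summed CPM of the class I genes (left) and the class II genes (right), on log axes, by the highest score of a spot (x axis) and section (symbols), for classes with at least 10 spots. MI day 3 Macrophage spots reach 3694 CPM for class I, and replicate 2 EPI spots reach 538 CPM for class II; CM4 spots of Sham day 7 are listed at 0 for class II and cannot be drawn.

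The difference between Macrophage and CM1 spots was taken gene by gene within a section, on log2(mean CPM + 1). In MI day 3 all members other than H2-Aa and H2-Ab1 were at least 1 log2 higher in Macrophage spots, where 19% of all genes were. They ran from 2.09 for B2m to 3.55 for Cd74. In MI day 7 replicate 2 the same members were again past this size, where 16.5% of all genes were. There they ran from 1.34 for B2m to 5.03 for Cd74. Genes compared had a mean over the sections of at least 1 CPM, which H2-Aa and H2-Ab1 reached through these 2 sections. Both genes were past 1 log2 in these sections too, but are not counted. In contrast, 1 member passed this size in Sham day 3 (H2-Eb1, 6.04% of all genes), 1 in Sham day 7 (Cd74, 1.9%) and 0 in MI day 7 replicate 1 (2.6%). None was past it in every section, which 0.383% of 12787 genes were. The label of the Macrophage class was checked against 10 macrophage markers, whose summed level in Macrophage spots was 440, 9669, 462, 660 and 3834 CPM in the order of sections above, against 84.9, 344, 97.9, 169 and 123 CPM in CM1 spots. In MI day 3 the Macrophage spots also held 10301 CPM of fibroblast, 100.4 of neutrophil, 99.1 of dendritic cell, 48.3 of B cell and 7.13 of T cell markers, against 2458, 55.7, 11.7, 8.09 and 0.406 CPM in CM1 spots. In replicate 2 they held 16926 CPM of fibroblast, 321 of neutrophil, 23.4 of dendritic cell, 99.8 of B cell and 86.3 of T cell markers, against 2976, 22.6, 10.7, 7.61 and 1.36 CPM in CM1 spots, and the part of these markers in the result was not tested.

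Across the spots of a section, class I levels had their highest correlation with the Macrophage score in MI day 3. Spearman's rho with the score in MI day 3 (376 spots) was 0.55 for B2m, 0.46 for H2-D1, 0.45 for H2-K1 and 0.42 for Cd74, and 0.19 to 0.26 for H2-Aa, H2-Ab1 and H2-Eb1. The summed class I level had a rho of 0.54 in MI day 3, 0.30 in MI day 7 replicate 1, 0.25 in replicate 2, 0.12 in Sham day 3 and 0.06 in Sham day 7. Among all genes of the same section it was at percentile 99.6, 99.7, 97.9, 98.5 and 93.9 in that order, a sum of 3 genes ranked among single genes. Ranked alone, B2m was at percentile 99.7, 99.6, 98.1, 99.2 and 95.7. H2-D1 was at 98.6, 98.1, 94.1, 94.2 and 74.4, and H2-K1 at 98.5, 92.7, 94.5, 44.2 and 42.7. The rank of the sum was as high in MI day 7 replicate 1 as in MI day 3. Its Pearson's r of log2 values with the score was 0.116 in replicate 1, against 0.638 in MI day 3. In the sham sections no member exceeded a rho of 0.14. The MI day 7 replicates differed: class II genes had rho of 0.02 to 0.05 in replicate 1 (693 spots) and of 0.18 to 0.26 in replicate 2 (791 spots), while B2m had 0.28 and 0.26. Spots of a section share library, depth and neighbouring tissue, and the score was computed from the same values, so no p is given.

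Other scores gave further structure. The summed class I level was negatively related to the CM1 score in all 5 sections, with rho of −0.29, −0.49, −0.28, −0.52 and −0.40 in the order of sections above. With the FB score it was 0.09, 0.41, 0.20, 0.37 and 0.27, and with the EndoEC score 0.27, 0.26, 0.19, 0.28 and 0.08. H2-D1 had the highest rho of the 3 class I genes with the EC score in all 5 sections, at 0.20, −0.05, 0.10, 0.19 and −0.04. In replicate 2 the EPI score had a rho of 0.39 with H2-Ab1 and 0.32 with the class II sum, above that of the Macrophage score with the same sum (0.28).

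**Figure D4:**
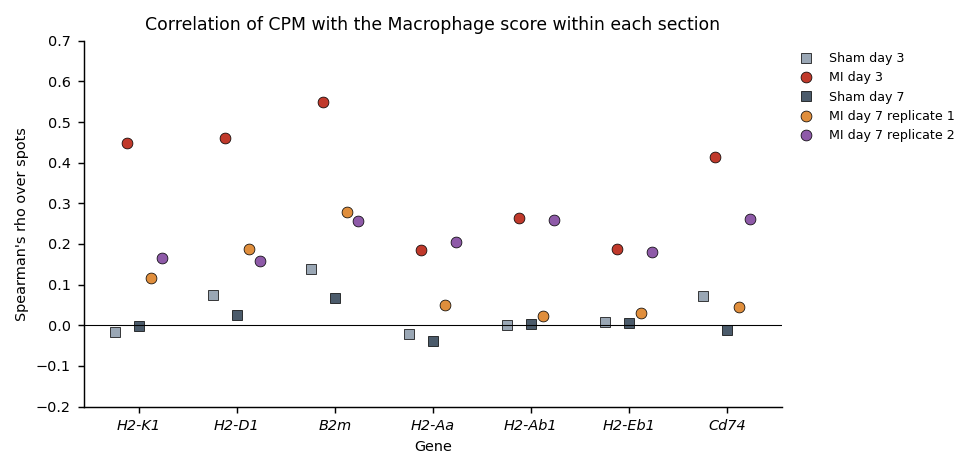
Spearman's rho over spots between CPM and the Macrophage score (y axis) for each member (x axis) and section (symbols, squares for sham and circles for MI). MI day 3 is highest for the class I genes and Cd74, and the sham sections lie at or below 0.14.

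Where the transcripts lay in the sections was described with Moran's I, which is near 0 for values scattered at random and near 1 where neighbouring spots are alike. For the summed class I level it was 0.09 in Sham day 3, 0.67 in MI day 3, 0.02 in Sham day 7, and 0.24 in both MI day 7 replicates. For the class II sum it was 0.05, 0.31, −0.00, 0.04 and 0.21. The class I sum was at percentile 97.7, 99.7, 75.7, 98.7 and 98.2 of all genes in that order, a sum of 3 genes ranked among single genes. The 10 spots with the highest class I sum in MI day 3, at 3839 to 5749 CPM against a median of 870 over the section, each touched another of the 10, and 8 of them were Macrophage spots. In MI day 7 replicate 2 the 10 highest, at 1392 to 1967 CPM, also each touched another, and 7 lay at the edge of the section, where 20.6% of its spots lie. Of these 10, 4 were Macrophage, 5 EPI and 1 FB spots. In MI day 7 replicate 1, 5 of the 10 highest touched another, and 9 were FB and 0 Macrophage spots. In Sham day 3, 0 touched another, with 3 FB and 1 Macrophage spots among the 10, and in Sham day 7, 2 touched another, with 9 FB and 0 Macrophage spots. The 10 spots highest in class II held 22.4% to 37.3% of the class II sum of their section.

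**Figure D5:**
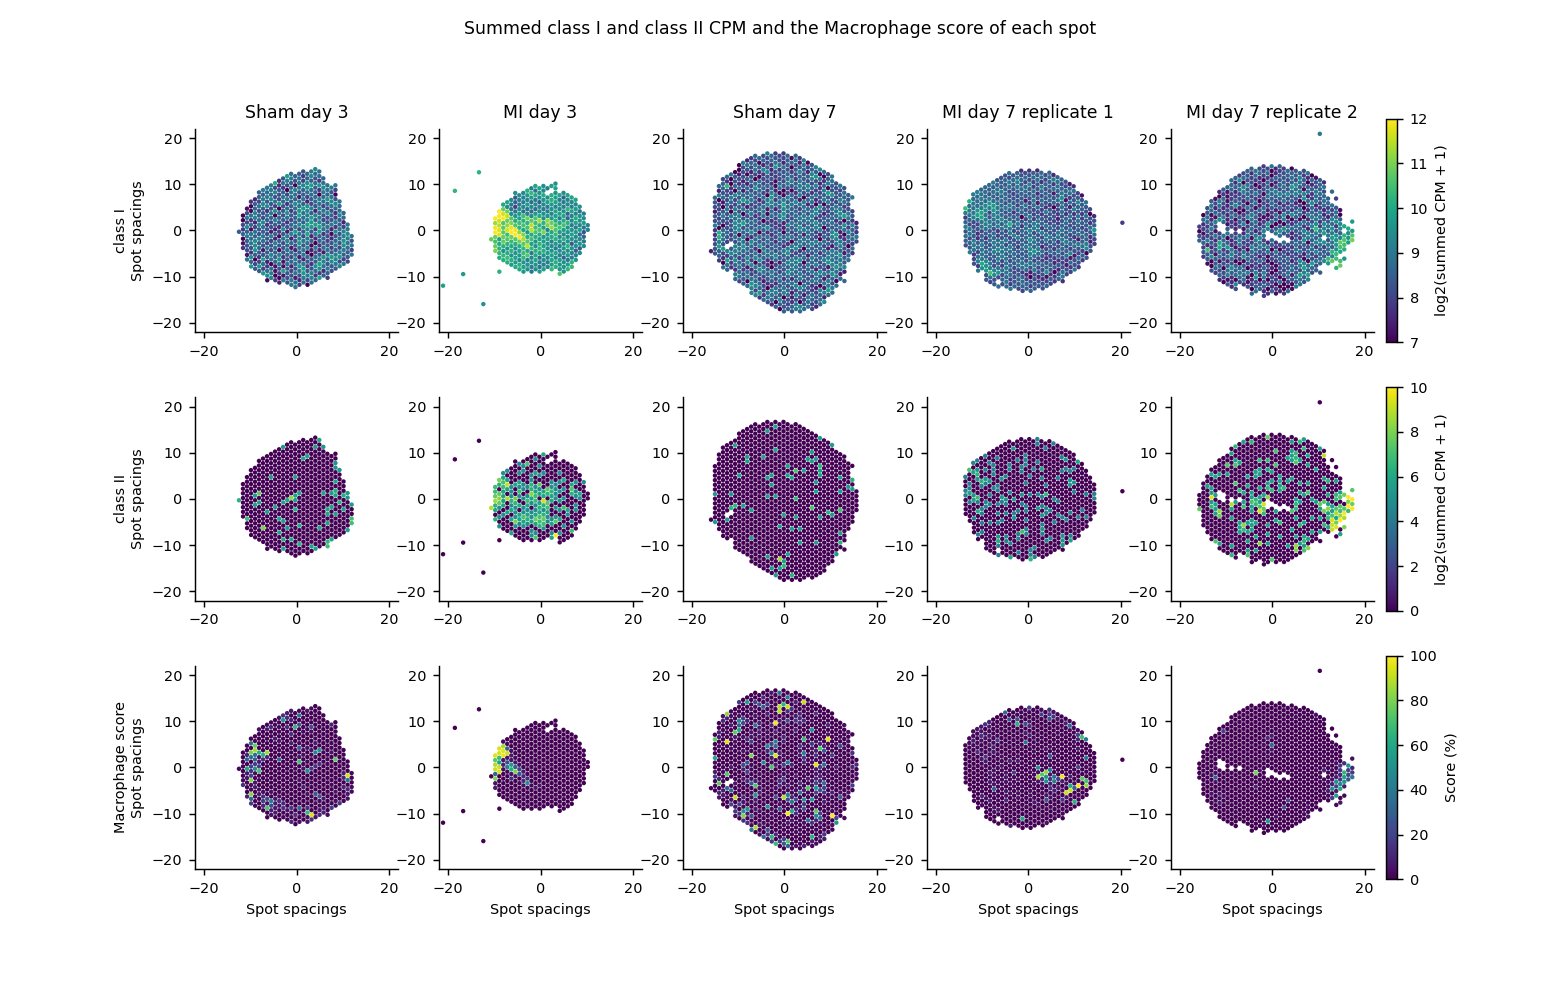
Position of each spot in units of the spot spacing, coloured by log2(summed class I CPM + 1) (top), log2(summed class II CPM + 1) (middle) and the Macrophage score in percent (bottom), with 1 column per section. In MI day 3 a group of adjoining spots is high for class I and the score, and in MI day 7 replicate 2 a group at the edge is high for class I and class II.

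Correlations between members over spots differed by class and section. Among the 3 class I genes, pairwise rho over spots was 0.53 to 0.59 in MI day 3 and 0.06 to 0.20 in the other 4 sections. Among the 4 class II genes it was 0.24 to 0.34 in MI day 3, 0.24 to 0.41 in MI day 7 replicate 2, 0.03 to 0.33 in Sham day 3, 0.02 to 0.20 in Sham day 7 and 0.01 to 0.24 in replicate 1. The class I and class II sums had a rho of 0.43 in MI day 3, 0.22 in replicate 2, and −0.03 to 0.08 in the other sections. In sparse counts such as those of class II in the sham sections, a weak correlation is no finding.

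The genes whose pattern over spots was most like the class I sum, by the median rho over the 5 sections among 5839 genes, were Eef1a1 (0.36), Bgn (0.36), Actg1 (0.35), Col1a2 (0.35) and Col3a1 (0.35), of which Bgn, Col1a2 and Col3a1 encode extracellular matrix proteins. For the class II sum they included Tyrobp (0.13), Grn (0.13), Rpl13a (0.13) and Cd63 (0.13). Tyrobp encodes a signalling adaptor of myeloid cells.

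Other genes of the pathways were counted by list, at day 3, where 3.51% of all genes were at least 1 log2 higher and the median of all genes was 0.03. Of the 8 genes of class I loading, Tap1, Tap2 (the peptide transporter) and Tapbp (tapasin, which bridges it to class I) were at least 1 log2 higher in MI than in sham at day 3, at 1.22, 1.11 and 1.40, and the list median was 0.40. Of 5 other class I heavy chains measured, H2-T22 at 1.17 and H2-T23 at 1.37 were past this size (median 1.00). Of the 5 immunoproteasome genes, the catalytic subunits Psmb8 (1.63) and Psmb9 (1.79) were past it, whereas Psmb10 (0.08), Psme1 (−0.18) and Psme2 (0.06) were near 0 (median 0.08). Class II processing was represented by 4 of 8 genes: Ctss, the cathepsin that cuts the invariant chain, was 3.83 log2 higher, Ifi30, a thiol reductase of the endosome, 1.33, the protease Lgmn 0.95 and H2-DMa, which exchanges peptides on class II, 0.65. Of 7 transactivators and interferon regulators, Irf1 was past 1 log2 at 1.06 (median 0.32). Ciita and Nlrc5, the transactivators of class II and class I, were not among the shared genes. These values have no replicate.

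Across days and at day 7, limma called 0 genes of these lists. In the test of the difference between days, whose spread comes only from the MI day 7 pair, the MI effect on Ctss was lower at day 7 than at day 3, by −2.76 ± 0.36 (SE) on the log2 scale (limma adjusted p = 0.00167). With median-of-ratios scaling the value was −2.65 (limma adjusted p = 0.201) and without mitochondrial and haemoglobin genes −2.58 (limma adjusted p = 0.279), so that Ctss was not called in either. Psmb9, at −1.83 ± 0.40, was at the threshold (limma adjusted p = 0.0513). No other gene of the pathway lists passed.

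Markers of other cells were summed by list, and not all of the lists moved with the members. All 10 macrophage markers were among the shared genes and none was at 0. Their summed level was 140 CPM in Sham day 3 and 149 in Sham day 7, 1064 in MI day 3, and 224 and 318 in the MI day 7 replicates. At day 3, 8 of 10 were at least 1 log2 higher in MI (3.51% of all genes), with a median of 2.11 against 0.03 for all genes. In the test of the difference between days, with the spread of the MI day 7 pair alone, the MI effect on 4 of 10 was called lower at day 7: Lyz2 by −2.88, Fcgr1 by −2.70, Cd68 by −1.70 and Csf1r by −1.58 log2 (limma adjusted p of 0.00427 to 0.0432), where 0.363% of all genes were. The values moved little with median-of-ratios scaling (−2.77, −2.59, −1.59 and −1.47 in that order) and without mitochondrial and haemoglobin genes (−2.71, −2.60, −1.56 and −1.44), but none of these 4 was called with median-of-ratios scaling (limma adjusted p of 0.201 to 0.382) or without mitochondrial and haemoglobin genes (0.279 to 0.453), and Cd68 and Csf1r were not called without spots under 5000 raw UMIs (0.0622 and 0.0592). The class I sum per summed macrophage marker was 2.94 in Sham day 3 and 2.53 in Sham day 7, 1.05 in MI day 3, and 1.72 and 1.17 in the MI day 7 replicates. The class II sum per summed marker was 0.128 in MI day 7 replicate 2 and 0.0270 to 0.0525 in the other 4 sections. Of dendritic cell markers only 2 of 7 were shared, with sums of 10.1 to 11.4 CPM in sham and 11.3 to 18.2 in MI. Most of that sum was Zbtb46, at 9.85 to 11.3 CPM in the 5 sections. The other, Itgax, the integrin CD11c, was at 0.0616 CPM in Sham day 3 and 0.274 in Sham day 7. It was at 7.25 CPM in MI day 3, and 0.134 and 0.881 in the MI day 7 replicates. Its highest pair of sections was that of the class II genes, as was that of the summed macrophage markers. Of B cell markers 3 of 5 were shared, with sums of 4.96 and 7.23 CPM in sham and 7.47 to 13.1 in MI, and of T cell markers 2 of 7, with sums of 0.772 to 3.29 CPM. Neutrophil markers (3 of 5 shared) summed to 10.4 and 26.0 CPM in sham, 83.6 in MI day 3, and 8.65 and 34.3 in the MI day 7 replicates. All 5 blood markers were shared and summed to 4411 and 6901 CPM in sham and 8567 to 11385 in MI. Endothelial markers, 7 of 7, ranged from 615 to 665 CPM over the 5 sections. Fibroblast markers, 5 of 5, summed to 2893 CPM in Sham day 3 and 3229 in Sham day 7, and were higher in every MI section, at 3832 in MI day 3 and 3838 and 5104 in the MI day 7 replicates. Cardiomyocyte markers, 5 of 5, summed to 23090 CPM in Sham day 3, 21142 in MI day 3, 26200 in Sham day 7, and 22571 and 24469 in the MI day 7 replicates. The part of each of these cell types in the member values was not tested.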

How the data were processed

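The submitters' processing notes name Space Ranger and GRCm38 (mm10), and the methods name Seurat with sctransform. The authors deposited 1 expression table and 1 metadata table per section. The Sham day 3 table held raw UMI counts. In each of the other 4 tables the deposited values were a score, namely counts after sctransform correction toward the typical depth of a section, rounded, so no count test was used. The deposited metadata gave raw UMI counts, label transfer scores (a fraction per cell type) and the spot position in pixels. Correcting the Sham day 3 table with sctransform 0.4.2 in Seurat 5.3.0 reproduced its deposited corrected spot totals to within 16 in 544 of 544 spots (tolerance 20).

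Spots were scaled to CPM over the 13711 shared genes and averaged per section, the replicate. Log2(mean CPM + 1) was fitted in limma 3.58.1 (R 4.3.3) with trend, two-sided, with Benjamini-Hochberg adjustment at 0.05 over 12933 genes of at least 1 CPM in at least 2 sections; residual degrees of freedom were 2 (across days, with day or operation as covariate) and 1 (day 7 and the difference between days). Ratios used an exact two-sided permutation test in scipy 1.17.1. Score classes held at least 10 spots; Moran's I used spots within 1.25 times the median spacing; edge spots have fewer than 6 neighbours. Named genes were the 7 members, list genes that were called or past 1 log2, or in lists of under 5 tested genes, a few list genes beside them (Psmb10, Psme1 and Psme2, chosen after their values were seen), and the 5 genes most like each class sum among those of at least 20 CPM with no H2- symbol, of which 1 is not reported here. Promoter sequences came from RefSeq (GRCm38.p6) and matched 5 of 7 members by symbol; H2-K1 has a second window offset by a few bases, not shown. The members and lists were chosen with earlier results of these data known. Alternatives are listed at the end.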

Additional observations from a re-analysis of the deposited data

Results flagged for a closer look

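The log2 ratio of MI to sham for H2-D1 was 0.94 at day 3, while at day 7 it was −0.38 in replicate 1 and −0.32 in replicate 2, so the MI section of one day and both MI sections of the other lay on opposite sides of their sham section. The difference between days was −1.29 on the log2 scale, with a limma adjusted p of 0.191, past no threshold. No group held 4 sections, so no section could be checked for standing apart from its group.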

How the results depend on the processing

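Each contrast was recomputed with a pseudocount of 5, no filter, median-of-ratios scaling, mitochondrial and haemoglobin genes left out, pooled CPM, the Sham day 3 table corrected with sctransform, and each section left out. Leaving out spots under 5000 raw UMIs, or the 10 highest class II spots of each section, was chosen after seeing the data. No member changed sign when no section was left out. The count of members called was 1 at day 7 from pooled CPM (Cd74). For the difference between days it was 1 (H2-K1) with a pseudocount of 5, with no filter, with the corrected Sham day 3 table (limma adjusted p of 0.0453 and 0.048 for the last 2) and without the 10 highest class II spots (limma adjusted p = 0.0234), and 2 (with B2m, limma adjusted p = 0.025) from pooled CPM. At day 3, 4 or 5 of 7 members, H2-Aa included, were at least 1 log2 higher under every setting tried.

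Without MI day 7 replicate 1, 3 members were called for MI against sham across days. Leaving out a sham section leaves 1 sham section, so no count of calls is given there. For day 7 against day 3, no member was called while both sham sections were kept. The estimates ranged with the section left out. Signs turned within these ranges: H2-D1 across days from −0.35 to 0.94, H2-K1 for day 7 against day 3 from −1.54 to 0.0304, and for the difference between days H2-Ab1 from −1.64 to 0.59, H2-Eb1 from −0.30 to 1.09 and Cd74 from −1.96 to 0.36. Without MI day 7 replicate 1 or 2 no residual degrees of freedom were left for day 7 and for the difference between days, so these are values with no test; without MI day 3 or MI day 7 replicate 2 H2-Aa did not pass the filter.

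Calls over all genes moved by over 1.5 times. For the difference between days they were 8 higher and 47 lower in the main setting, 12 and 118 with a pseudocount of 5, 23 and 135 from pooled CPM, 6 and 28 without shallow spots, 16 and 79 without the 10 highest class II spots, and 0 and 0 with median-of-ratios scaling or without mitochondrial and haemoglobin genes. At day 7 they were 24 and 6, against 62 and 25 from pooled CPM, 13 and 3 without shallow spots, 40 and 13 without the class II spots, and 0 and 0 with these scalings. For day 7 against day 3 they were 32 and 45, against 127 and 58 with median-of-ratios scaling. They were 84 and 129 without mitochondrial and haemoglobin genes, and 54 and 89 without the class II spots. Across days they were 1 and 0, against 81 and 6 without MI day 7 replicate 1. At day 3, genes past 1 log2 were 454 and 67, and 207 and 17 with a pseudocount of 5. The cause was not tested.

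For the class I sum, Pearson's r of log2 values with the Macrophage score was 0.638 in MI day 3, 0.116 in MI day 7 replicate 1 and 0.304 in replicate 2, where rho with the raw UMI total partialled out was 0.199. Moran's I with a second ring of neighbours was 0.0629, 0.563, 0.0165, 0.191 and 0.213 in Sham day 3, MI day 3, Sham day 7 and MI day 7 replicates 1 and 2, and of ranks 0.0891, 0.602, 0.0448, 0.207 and 0.198. A pseudocount does not enter score class levels, which are mean CPM. No paired analysis was possible because the groups compared share fewer than 2 replicate numbers. Class II counts in the sham sections limit what can be seen there.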
